A study of Drosophila virilis and Drosophila yakuba with 2 samples.

Results

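The genes described here are period (per), timeless (tim) and Pigment-dispersing factor (Pdf), which belong to the circadian clock of flies. They were taken from the 2 deposited expression tables as the rows whose gene name, without its species prefix and transcript suffix, was per, tim or Pdf. This gave 5 rows among 30568 gene models: per, tim and Pdf among 14491 models of Drosophila virilis, and per and tim among 16077 models of Drosophila yakuba. No yakuba row matched Pdf by this rule, and the level of Pdf in yakuba was not analysed here.

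Wild-type females were used, mated and 2 to 5 days old, and total RNA of their heads gave 1 library for D. virilis (stock 15010-1051.87) and 1 for D. yakuba (stock 14021-0261.01). D. yakuba is a close relative of D. melanogaster, the species in which the fly clock was first worked out, and D. virilis belongs to another subgenus. Levels were deposited as FPKM, fragments divided by the length of the gene model and by the library total. With 1 library per species no value has a replicate error, no difference was tested, and species, annotation, read mapping and library cannot be told apart. In a whole-head sample, fewer cells of a type and less RNA per cell cannot be told apart either.

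In the fly clock, the transcription factors CLOCK and CYCLE switch on per and tim, and the PER and TIM proteins enter the nucleus together and repress their own transcription. TIM is broken down after light reaches the photoreceptor protein CRYPTOCHROME, which resets the clock each day. Clock neurons of the brain, photoreceptors, glia and head fat body all run such a clock, while Pdf encodes a neuropeptide that in D. melanogaster is made by a few lateral clock neurons and keeps the others in step. In D. melanogaster heads, per and tim transcripts rise and fall over the day. No source used here gives the hour of dissection or the light schedule, so each value stands for an unknown time of day.

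The labelled tissue was checked against marker genes found by symbol. Photoreceptor markers were high in both libraries, with a summed level of 9137 FPKM over 5 of 11 symbols in virilis and 3912 FPKM over 4 of 11 in yakuba. The germline and eggshell markers summed to 10.7 FPKM over 7 of 8 symbols in virilis and to 3.98 FPKM over 2 of 8 in yakuba. The yakuba sum rests on dec-1 and bam only, so it says little about other germline genes in that library. Outside this list, the female germline gene dhd had 22.8 FPKM in yakuba, above per, and 1.77 FPKM in virilis. The eggshell gene Cp16, also outside it, had 0.85 FPKM in yakuba and 0.79 FPKM in virilis. The source of the dhd level was not tested. The neuronal markers elav and para had 12.8 and 33.2 FPKM in virilis, and fne had 24.5 FPKM in yakuba. Of the fat body markers Yp1 had 215 FPKM in virilis and takeout (to) had 39.2 FPKM in yakuba, and the muscle markers summed to 3712 FPKM over 4 of 4 symbols in virilis and to 1230 FPKM over 3 of 4 in yakuba. The part of these tissues in the clock gene levels was not tested. The glial marker repo was found by symbol in neither table. Symbols were rare, with 279 in virilis (1.93% of models) and 497 in yakuba (3.09%).

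Of the clock genes found, tim, which encodes the light-sensitive partner of PER, had the highest level in both libraries. Its level was 72.1 FPKM in virilis heads and 89.2 FPKM in yakuba heads. Its rank was 1003 of 14491 models in virilis and 709 of 16077 models in yakuba, which put it above 93.1% and 95.6% of the models of each library. The median of the models at 1 FPKM or more was 11.8 FPKM in the virilis table and 10.3 FPKM in the yakuba table, and tim was 6.09 times that median in virilis and 8.64 times in yakuba. Among genes that carried a symbol it ranked 56 of 279 in virilis and 143 of 497 in yakuba.

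The repressor gene per stood lower than tim in both libraries, at 22.9 FPKM in virilis and 18.9 FPKM in yakuba. It ranked 2994 of 14491 models in virilis and 3198 of 16077 models in yakuba, above 79.3% and 80.1% of the models. These were 1.93 times the median of the models at 1 FPKM or more in virilis and 1.83 times that in yakuba. The place of per depends on which genes it is ranked with: among genes with a symbol it lay above 69.7% in virilis but above only 45.8% in yakuba. The median gene with a symbol had 8.61 FPKM in the virilis table and 23.7 FPKM in the yakuba table.

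The neuropeptide gene Pdf had 12.7 FPKM in virilis heads, the lowest of the 3 clock genes. It ranked 4921 of 14491 models, above 66.0% of them, and was 1.07 times the median of the models at 1 FPKM or more. In the same library the neuropeptide genes corazonin (Crz) and FMRFamide (Fmrf), named here after their values were seen, were at 4.23 and 2.90 FPKM. The small peptide genes looked up in yakuba, also after their values were seen, were others and not all neuropeptide genes. They ranged from Ilp4 at 0.40 FPKM and Dsk at 10.9 FPKM to Nplp3 at 958 FPKM and Nplp2 at 6117 FPKM. Models with a span between 150 and 600 bp, a window of 2 times around that of Pdf, had a median of 1.86 FPKM in virilis, and Pdf was above 70.5% of these 2473 models.

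**Figure D1:**
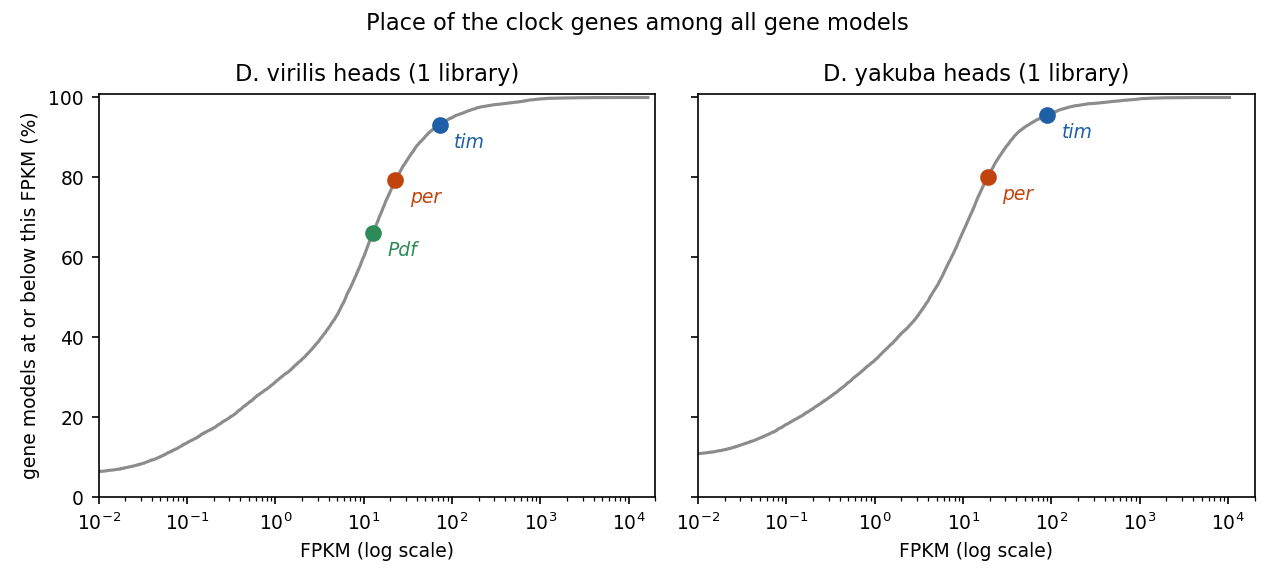
Share of gene models at or below each FPKM (vertical axis, percent) against FPKM on a log scale, with virilis on the left and yakuba on the right; the grey line is all models and the points are the clock genes, 1 library each. In virilis the order from low to high is Pdf, per, tim at 12.7, 22.9 and 72.1 FPKM, and in yakuba it is per, tim at 18.9 and 89.2 FPKM.

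The depth behind these values was estimated from the steps of the lowest FPKM values, since the tables hold no counts. The estimated total was 70750000 fragments in virilis and 63000000 fragments in yakuba. If each span were all exon, Pdf would rest on 126 fragments, with a 95% exact Poisson interval of 10.6 to 15.1 FPKM. The per value would rest on 7657 fragments in virilis, with an interval of 22.4 to 23.4 FPKM, and on 1215 fragments in yakuba, with an interval of 17.9 to 20.0 FPKM. For tim the numbers would be 54216 and 55880 fragments. A span includes introns, so at these totals the numbers are upper limits on the fragments and the intervals are too narrow where a model has introns. A true total that is a multiple of the estimate would raise the numbers, and the intervals cover counting error only. The levels of Pdf and per in virilis lay outside each other's counting intervals, and so did those of per and tim in both libraries.

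Within a library the scaling cancels, so the ratio of tim to per does not depend on the library total. It was 3.15 in virilis heads, with a counting interval of 3.07 to 3.23, and 4.72 in yakuba heads, with an interval of 4.46 to 5.00. The ratio was thus higher in yakuba, by 1.5 times, a difference of -0.58 on the log2 scale for virilis minus yakuba. The intervals do not overlap, but they hold no variation between flies, hours of the day or libraries. The gene models do not cancel as the scaling does: the per model spans 4886 bp in virilis and 1194 bp in yakuba. The effect of this on the ratio was not tested. To place the size of this difference, the same quantity was computed for all 780 couples that can be formed from the 40 genes with the same symbol in both tables, at least 10 FPKM in one of the libraries and above 0 in both. The median absolute difference was 0.78 on the log2 scale, and 60.1% of the couples differed by more than tim and per. These couples share genes and include tim and per themselves, so the share is a description.

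Pdf in virilis was 0.55 times per, with a counting interval of 0.46 to 0.66. The ratio of tim to Pdf was 5.68 in virilis, with an interval of 4.77 to 6.82. The neuropeptide gene was thus at the low end of the 3 clock genes and tim at the high end.

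Set side by side in the deposited FPKM, the virilis level was 1.21 times the yakuba level for per and 0.81 times for tim, whose direction turns with the ribosomal protein genes as the zero point. The per models of the 2 species also differ in span, by 4.09 times. The species were compared over the 77 genes with the same symbol, as log2((virilis FPKM + 1)/(yakuba FPKM + 1)) minus the median over the 52 of them that reached 1 FPKM in each library. That median was -0.20. On this scale per was at 0.46 and tim at -0.11. From the ribosomal protein genes per was at 0.63 and tim at 0.061. Neither was 2-fold from the median ratio. A level of 10 FPKM in at least one library was reached by 41 pairs, of which 8 (19.5%) were 2-fold or more from it, 4 of them higher in virilis and 4 higher in yakuba. The pairs are not all independent. MtnC, among the 8, has the same yakuba level (15.7 FPKM) and span (193 bp) as MtnB. The muscle genes Mhc, Mlc1 and wupA are among the 4 higher in virilis. In order of distance from the median ratio per was number 23 and tim number 33 of the 41, and the median distance was 0.48. With this zero point both clock genes thus lay no farther from the median ratio than the typical pair, per only narrowly so.

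**Figure D2:**
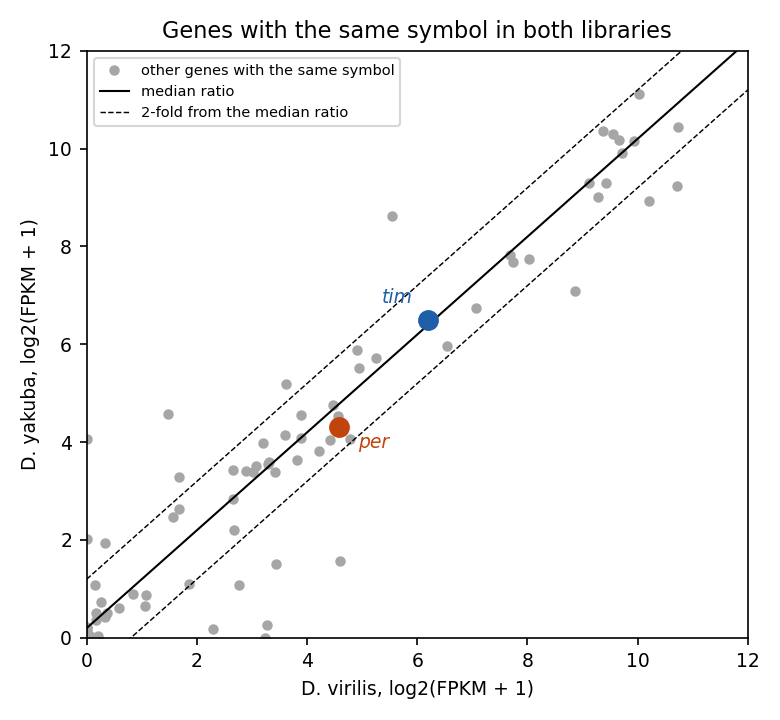
Level of each gene with the same symbol in both tables, as log2(FPKM + 1), in virilis (horizontal axis) and yakuba (vertical axis), 1 library each; the solid line is the median ratio and the dashed lines are 2-fold from it. The points of per and tim lie between the dashed lines. Their log2 ratios are 0.46 and -0.11 relative to the median, and 0.63 and 0.061 when centred on ribosomal protein genes.

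Likeness in level was searched among genes with a symbol only, the 77 shared ones for per and tim and the 279 of virilis for Pdf. Among these, the genes most like per, by Euclidean distance in log2(FPKM + 1) over the 2 libraries, were Su(var)205, ry, MtnB, Updo and bru-3, at distances of 0.21 to 0.61. The nearest, Su(var)205, encodes heterochromatin protein 1 and was at 22.7 FPKM in virilis heads and 22.1 FPKM in yakuba heads. The next, ry, encodes xanthine dehydrogenase and was at 20.5 FPKM in virilis heads and 15.4 FPKM in yakuba heads. MtnB is a metallothionein gene with similar copies, so its value is uncertain. The genes most like tim were boss, Obp49a, SREBP, cbt and Tl, at distances of 0.64 to 1.59, so none of the shared genes was as near to tim as the 5 were to per. The first of them, boss, which encodes a ligand for the Sevenless receptor in the eye, stood at 92.4 FPKM in virilis heads and at 61.1 FPKM in yakuba heads. For Pdf, in virilis alone, the nearest were ey, elav, Dscam, l(2)tid and ssx, all between 12.3 and 13.1 FPKM. These likenesses rest on 2 libraries, or on 1 for Pdf, and describe level only.

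Few other genes of the clock could be recognised by symbol. Of 20 core clock symbols, per and tim were found in virilis, and per, tim and CkIIalpha in yakuba. CkIIalpha, the catalytic subunit of the kinase CK2 that phosphorylates PER and TIM in D. melanogaster, had 62.2 FPKM in yakuba, which placed it between per and tim, with tim 1.43 times as high. Of 19 clock output symbols, Pdf was found in virilis and takeout in yakuba. The takeout gene, whose transcript cycles in D. melanogaster heads, had 39.2 FPKM, 2.07 times the level of per. The activators Clk and cyc and the light receptor cry were not found by symbol in either table and were not analysed here.

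Light reaches the clock in part through the eye, and the photoreceptor genes found ranged from below tim to far above it. In virilis 6 of 15 light input and photoreceptor symbols were found, with a median of 130 FPKM. The major rhodopsin gene ninaE, at 8636 FPKM, was 120 times as high as tim and 377 times as high as per. The rhodopsin genes Rh3 and Rh4 at 178 and 168 FPKM were also above tim, whereas Rh2, the rhodopsin of the simple eyes on the top of the head, was below it at 62.9 FPKM. The transcription factor gene glass (gl), needed for photoreceptors and some clock neurons in D. melanogaster, had 8.61 FPKM, below all 3 clock genes. In yakuba 4 symbols were found, with a median of 837 FPKM. Of these, the arrestin gene Arr1 at 2177 FPKM was 24.4 times as high as tim, while boss at 61.1 FPKM was below tim. Apart from boss the photoreceptor genes found differed between the tables, so the list was not compared between species.

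**Figure D3:**
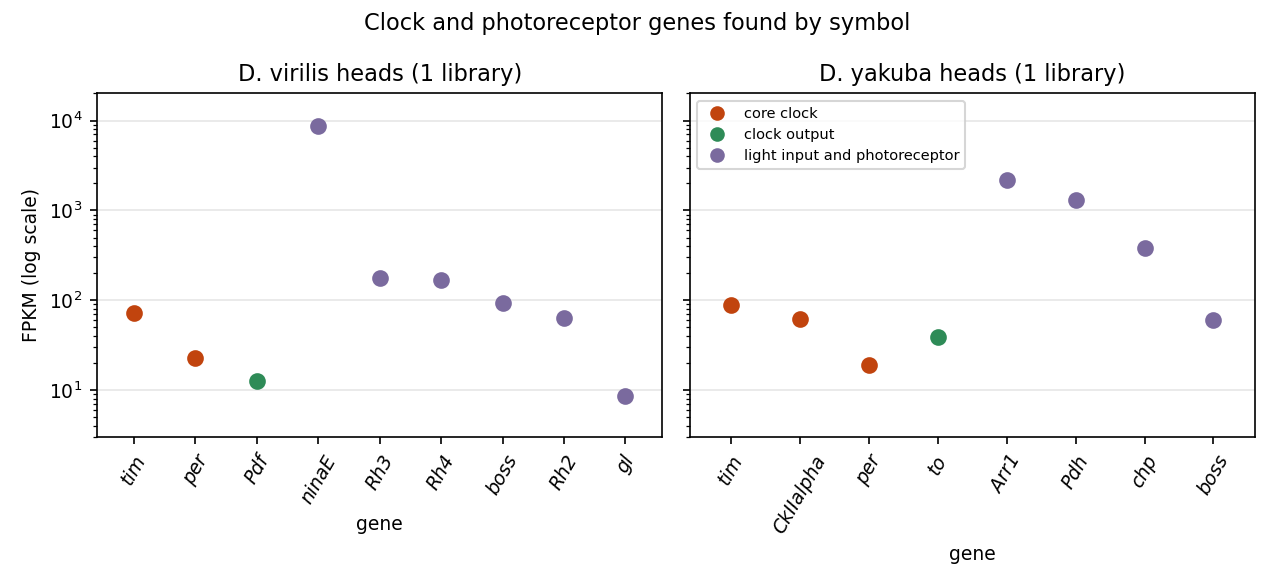
FPKM on a log scale of the core clock, clock output and photoreceptor genes found by symbol, with virilis on the left and yakuba on the right, 1 library each. In virilis tim lies between boss and Rh2 (92.4 and 62.9 FPKM) and gl is the lowest at 8.61 FPKM; in yakuba tim is the highest of the core clock genes found and per the lowest point at 18.9 FPKM.

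The positions of the genes in the authors' tables differed in span between the species for per, and hardly for tim. Coordinates are given as in those tables, with starts counted from 1. No source used here names the genome builds. In virilis tim (FBgn0022834) lay on scaffold_12963 from 15278465 to 15289251, a span of 10787 bp, and in yakuba tim (FBgn0020061) lay on 2L from 3482781 to 3492896, a span of 10116 bp. The ratio of these spans was 1.07, and 45 of the 77 pairs differed more. Both spans were long for their tables, above 91.6% of virilis and 93.1% of yakuba spans.

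The virilis per model (FBgn0013135) lay on scaffold_12928 from 369409 to 374294, a span of 4886 bp, and the yakuba per model (FBgn0013215) lay on X from 5765257 to 5766450, a span of 1194 bp. The virilis span was 4.09 times as long. Of the 77 pairs 9 differed by more than 1.5 times in span, and 1, the sialyltransferase gene ST6Gal, differed by more than per. The virilis span was above 81.5% of all spans of its table, and the yakuba span was above 41.6%. Whether both values stand for the same part of the gene was not tested.

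The short yakuba per model stood between 2 models that came very close to it. GE16271 (X, 5764310 to 5765206, 897 bp) ended 50 bp before it, and GE16269 (X, 5766517 to 5768334, 1818 bp) began 66 bp after it. Their levels were 16.6 and 15.6 FPKM, beside 18.9 FPKM for per. The 3 models were thus within a narrow range, with GE16271 at -0.19 and GE16269 at -0.28 on the log2 scale relative to per. From the start of the first to the end of the last they covered 4025 bp, which is 3.37 times the per span alone, and the virilis per span was 1.21 times that length. All 3 yakuba spans were multiples of 3 bp, which is common: so were 67.6% of the yakuba spans under 900 bp.

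Such close neighbours on both sides were rare. A gap of 0 to 100 bp on both sides was found for 10 of 14205 virilis models with a neighbour on each side (0.0704%) and for 16 of 15263 such yakuba models (0.105%). The limit of 100 bp holds both gaps at yakuba per, which is itself among the 16, so the share is a description. The median gap between neighbouring models was 1754 bp in virilis and 1393 bp in yakuba. Close neighbours were also nearer in level. Among neighbours both at 1 FPKM or more, the median absolute log2 difference in virilis was 0.89 for the 301 with a gap of at most 100 bp and 1.57 for the 7742 with a wider gap. In yakuba it was 0.78 for 278 and 1.56 for 7600. The differences at per, 0.19 and 0.28, were smaller than both medians. In yakuba 22.7% of the close neighbours and 9.66% of those with a wider gap were within 0.25 on this scale. GE16271 was within it and GE16269 was not. The tables give GE16271 and GE16269 no symbol, and whether they belong to the same transcript as per was not tested. In yakuba tim was 5.37 times as high as GE16271 and 5.73 times as high as GE16269, beside 4.72 times for per.

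Around the virilis per model the spacing was wider. The model before it, GJ16719, ended 1218 bp away and had 38.7 FPKM, and the model after it, GJ16720, began 18585 bp away and had 13.3 FPKM. Within 50 kb on each side 5 of 17 other models were higher than per in virilis, and 1 of 23 was higher in yakuba. Of all models, 20.7% in virilis and 19.9% in yakuba ranked at or above per. On its own sequence per ranked 113 of 641 models in virilis and 489 of 2401 models on the X in yakuba. All 6 genes with the same symbol in both tables that lay on scaffold_12928, per included, lay on the X in yakuba.

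The tim models lay far from other models in both species, and the nearest model on each side was lower than tim. In virilis the nearest models were 8627 bp before and 29350 bp after it, with 0.64 and 8.83 FPKM, and in yakuba they were 13285 bp before and 4772 bp after it, with 2.15 and 0.96 FPKM. The tim level was 113 and 8.16 times that of its neighbours in virilis, and 41.5 and 92.8 times in yakuba. Within 50 kb on each side none of 11 other models was higher than tim in virilis, where the highest had 35.5 FPKM. In yakuba 2 of 24 were higher, and the highest had 149 FPKM. Of all models, 6.92% in virilis and 4.41% in yakuba ranked at or above tim, so few higher neighbours follow from its rank alone. On its sequence tim ranked 147 of 1883 models in virilis and 138 of 2797 on 2L in yakuba. Of the 9 genes with the same symbol in both tables on scaffold_12963, tim included, 7 lay on 2L in yakuba and 2 on 2R.

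The Pdf model of virilis (FBgn0261447) lay on scaffold_13047 from 10963616 to 10963915. Its span of 300 bp, a multiple of 3 like 66.8% of virilis spans under 900 bp, was among the shortest, above only 4.17% of virilis spans. The model before it, GJ24212, ended 1444 bp away and had 19.3 FPKM, and the model after it, GJ24213, began 1114 bp away and had 0.44 FPKM. Within 50 kb on each side 5 of 13 other models were higher than Pdf, and 34.0% of all virilis models ranked at or above Pdf. It ranked 718 of 1967 models on its scaffold, all 11 of whose shared symbols lay on 3R in yakuba. A model this short leaves little length beyond the estimated fragment length of 160 bp in virilis, so the length by which its fragments were divided depends largely on that estimate. No model overlapped per, tim or Pdf in the virilis table, or per or tim in the yakuba table.

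**Figure D4:**
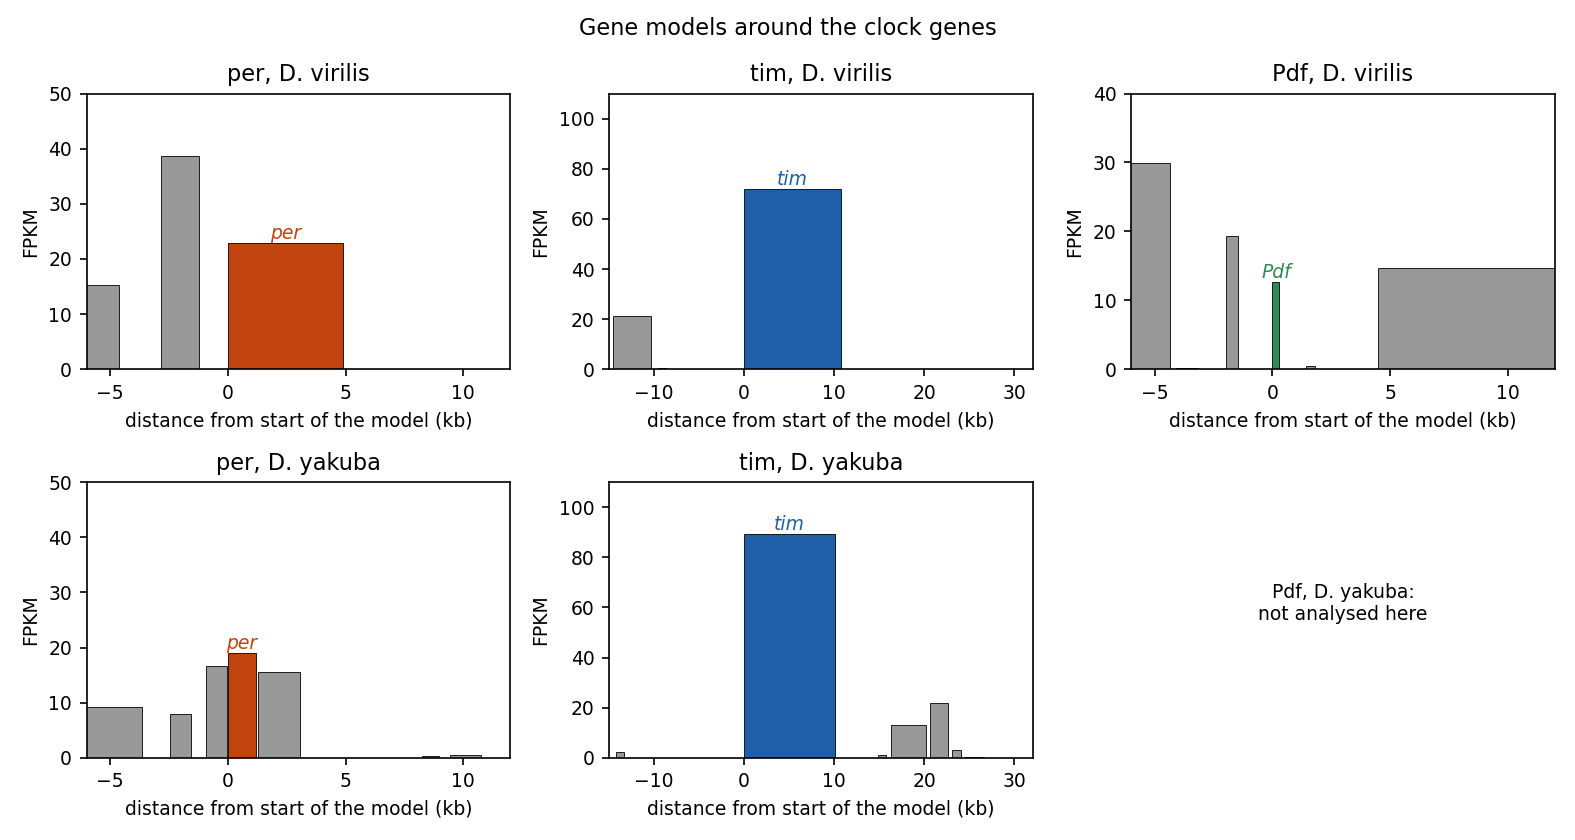
Gene models around per, tim and Pdf in virilis (top row) and around per and tim in yakuba (bottom row); the horizontal axis is the distance in kb from the start of the clock gene's model, each box spans a model and its height is the FPKM in that library. The yakuba per model of 1194 bp has a model of similar height close by on each side (16.6 and 15.6 FPKM beside 18.9 FPKM), while the nearest models lie 1218 bp or more from the virilis per model of 4886 bp and 4772 bp or more from both tim models.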

How the data were processed

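Per the labels' protocols, heads were ground in Trizol and 1 µg of total RNA of each species was made into a strand-specific library. Per the file headers, the tables deposited by the authors hold FPKM, 1 table for each library, beside a gene identifier, name and locus. TopHat and Cufflinks are named in the submitters' processing notes; no source used here gives versions, builds, annotation releases or the use of strand, so reads of overlapping antisense transcripts may be included.

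All models were kept. The share of models below a gene (ties counted as 0.5) gave its percentile. Ratios were computed as stated beside them, with 1 FPKM as pseudocount between species. Locus starts count from 0, since multiples of 3 made up 66.8% of the spans under 900 bp in virilis and 67.6% in yakuba, and are printed from 1. Totals were searched, with the fragment length, for the pair that put most low values (spans 900 to 4000 bp, under 0.12 FPKM) within 0.04 of a whole number of fragments: 58.9% in virilis at 160 bp and 49.5% in yakuba at 175 bp, where the median of all combinations was 5.41% and 5.75%. Where a simple fraction of the best total did nearly as well, it was preferred. Intervals are 95% exact Poisson or binomial.

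Genes were named by a rule: the members, the clock and photoreceptor lists, the 5 genes nearest in level, and the neighbouring models. The members and lists were chosen with earlier results of these data known. Sequences of the genes were not analysed here. Python 3.11.15, pandas 2.3.3, numpy 2.4.6 and scipy 1.17.1 were used. Alternatives were other sets of models to rank among, pseudocounts, centrings and a rescaling of FPKM.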

Additional observations from a re-analysis of the deposited data

How the results depend on the processing

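The percentiles depend on the set of models ranked. For per, tim and Pdf in virilis they were 78.0, 92.6 and 63.8 among models above 0 FPKM, 71.0, 90.3 and 52.3 among models at 1 FPKM or more, and 69.7, 80.1 and 60.04 among genes with a symbol. For per and tim in yakuba they were 77.8 and 95.1, 69.7 and 93.3, and 45.8 and 71.3 in the same sets. Among models of similar span they were 75.9 for per and 70.5 for Pdf in virilis, and 83.0 for per and 94.8 for tim in yakuba. The ratio of tim to per was 3.06 in virilis with a pseudocount of 1 FPKM, and 2.76 in virilis and 3.94 in yakuba with 5 FPKM, and stayed higher in yakuba. The log2 ratio of per was 0.26 without centring, 0.63 centred on ribosomal protein genes and 0.075 with FPKM rescaled to the same sum of 1000000 in each library. That of tim was -0.30, 0.061 and -0.50 in the same settings, and -0.12 centred on all pairs above 0. These 3 settings shifted the median of the pairs by -0.20, 0.17 and -0.40, which is by construction the whole of the change in the first and second. Between 8 and 12 pairs were 2-fold or more from the zero point in these settings. No paired analysis was possible because each species has 1 library.

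The deposited values carry no counts, so counting error rests on the estimated totals, and it is widest for Pdf. Time of day, replicate spread and the effect of the different gene models on FPKM could not be measured.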
